A study of Mus musculus with 5 samples.

Results

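Histone-modifying enzymes, readers of histone marks and ATP-driven chromatin remodelers were compared between 2 progenitor populations of mouse bone marrow. Members were taken by gene symbol from the platform annotation: probe sets with exactly 1 symbol that begins with Kdm, Kmt, Hdac, Smarc, Setd or Prmt and goes on with a letter or digit, or with Kat, Chd, Ezh, Cbx or Brd and goes on with a digit, leaving out Kdm5c, Kdm5d and Kdm6a. This gave 242 probe sets of 98 genes, out of 45037 probe sets and 18193 genes with a probe set of 1 symbol. The first population was the common dendritic cell progenitor (CDP, n = 3 arrays), the source of dendritic cells, which had been sorted as lineage-negative, c-Kit-intermediate, Sca-1-negative, CD34-positive, Flk2-positive, CD16/32-negative and CD115-positive cells. It was set against the common myeloid progenitor (CMP, n = 2 arrays), sorted as lineage-negative, c-Kit-high, Sca-1-negative, CD11c-negative, CD34-positive, Flk2-positive, CD16/32-negative and CD115-negative cells. All mice were C57BL/6 of wild-type genotype, with no treatment and no age given in the labels. RNA of 10000 to 30000 double-sorted cells was amplified over 2 cycles and measured on Affymetrix oligonucleotide arrays of the mouse genome. Nothing in the labels ties an array to an animal, so the p-values rest on a spread between arrays that may be technical only.

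Chromatin in progenitors is set by enzymes that write marks on histone tails (acetyltransferases, lysine and arginine methyltransferases), enzymes that erase them (deacetylases, demethylases), proteins that read them through chromodomains or bromodomains, and remodelers that slide or evict nucleosomes with the energy of ATP. Polycomb complexes keep lineage genes silent through H3K27 methylation, while KMT2 complexes and acetyltransferases mark active promoters and enhancers. Several of these proteins, among them Kmt2a, Ezh2, Kat6a and Smarca4, are known in mice to be needed for blood formation.

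The share of all probe sets at or above log2 5, used here as the detection level, was 34.0% to 35.8% on the 5 arrays. For beta-actin, the 3′ control probe set exceeded the 5′ one by 8.05 on CDP 1, 2.12 on CDP 2 and 4.48 on CDP 3, against 7.35 on CMP 1 and 1.81 on CMP 2 (log2), so CDP 1 and CMP 1 are called the 5′-actin-poor arrays. The Gapdh controls gave another order, with differences of 4.64, 3.88 and 6.60 on the CDP arrays, against 4.71 and 3.22 on the CMP arrays, so CDP 3 was highest and the split below rests on beta-actin alone. Over the 152 tested member probe sets CDP 1 correlated at 0.908 with CMP 1 and at 0.864 and 0.861 with CDP 2 and CDP 3, a description across probe sets that are not independent. Of 9 mature neutrophil markers 8 were at or above log2 5 on CDP 2 and none on the other 4 arrays. Of 6 erythroid markers 2 reached log2 5, Slc4a1 (9.89) and Alas2 (8.80), both on CDP 2 only. The other erythroid markers, among them Gata1 and Klf1, were below log2 5 on every array. Of 6 T and NK cell markers none reached log2 5 on any array. Of 5 B cell markers 2 did: Vpreb1 was at 5.97, 6.08 and 6.29 in CDP, against 4.96 and 3.45 in CMP (1.91 ± 0.50 SE, adjusted p = 0.145), and Cd79b at 7.12, 8.13 and 8.07 in CDP, against 5.96 and 6.96 in CMP (1.31 ± 0.49 SE, adjusted p = 0.272). The other 3 B cell markers, among them Cd79a and Pax5, were below log2 5 on every array, and the part of B-lineage transcripts in the results was not tested. The mean of 17 proliferation genes was 11.96, 12.08 and 11.99 on the CDP arrays, against 11.02 and 11.42 on the CMP arrays. Of 7 genes of the sorting markers, Itgax (CD11c) was called higher and Kit lower in CDP, and the other 5 did not pass. Csf1r, which encodes CD115, was at 13.16, 12.94 and 12.95 in CDP, against 11.75 and 11.03 in the CMP sorted as CD115-negative (1.63 ± 0.35 SE, adjusted p = 0.0966). Both populations were sorted as CD16/32-negative. Fcgr2b, whose product the CD16/32 antibody binds, was at 9.25, 9.36 and 10.25 in CDP, against 9.01 and 8.72 in CMP. Its difference did not pass (0.76 ± 0.42 SE, adjusted p = 0.448). Fcgr3, the other gene listed for this gate, lay near the detection level, with means of 4.89 in CDP and 5.10 in CMP. Its difference did not pass either (-0.21 ± 0.40 SE, adjusted p = 0.860). With bulk RNA, a change in the mix of cells and a change in RNA per cell cannot be told apart.

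Of the chromatin genes 1 passed the test. Of the 242 probe sets, 152 (82 genes) reached log2 5 on at least 2 arrays and were tested, and 90 were not, of which 84 reached it on no array and 6 on 1 array. The 16 genes with no tested probe set included Cbx3, Kdm4b, Kdm4d and Smarca1, and the others are named with their groups. Among the tested ones 1 was higher in CDP, Hdac9, and 0 were lower (limma, adjusted p under 0.05, with Benjamini-Hochberg adjustment across the 16552 probe sets tested). That is 0.658% of the members, where 1.73% of all tested probe sets were called, 1.31% higher and 0.423% lower in CDP. At an unadjusted p under 0.05 the members had 16 probe sets, 12 above and 4 below CMP, or 10.5%, where all tested probe sets had 15.9%. The 3 CDP arrays did not overlap the 2 CMP arrays on 41 member probe sets (27%), 27 with CDP above and 14 with CDP below, against 32.2% of all tested. At 1 probe set per gene the shares at an unadjusted p under 0.05 were closer, 15.9% of the 82 member genes and 17.9% of all genes (limma). At that unit the groups did not overlap for 36.6% of the member genes, and the share over all genes was not computed.

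The members' differences were centred where those of all probe sets were. The median CDP minus CMP difference was 0.09 (log2) over the 152 member probe sets and 0.12 over all tested, and the median size was 0.47 and 0.46. Quantile normalization moved the members' median to -0.02, so family medians below are given relative to the 0.12 of all tested. The lower and upper quartiles of the members' differences were -0.38 and 0.51. The smallest difference called anywhere on the arrays was 1.86, and 4 member probe sets were at least that large. The 95% interval of the fit lay wholly between -1 and 1 for only 14 of the 152 member probe sets (9.21%, and 10.8% of all tested), so for the rest the interval reached past a 2-fold difference.

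**Figure D1:**
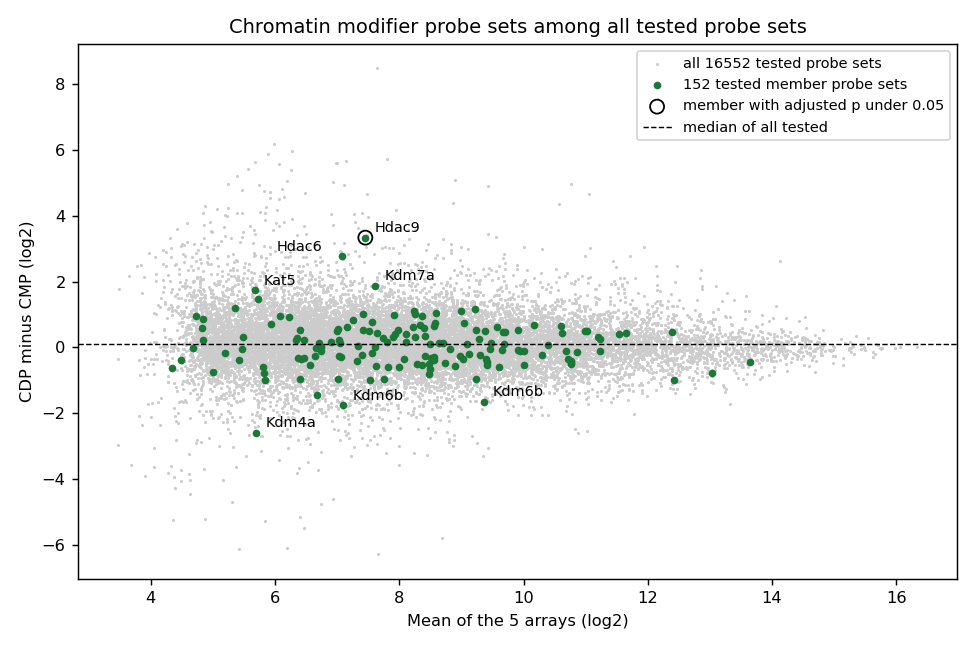
Each point is a probe set, with its mean over the 5 arrays (log2) on the horizontal axis and the CDP minus CMP difference (log2) on the vertical axis; grey points are all 16552 tested probe sets, green points the 152 tested members, the dashed line the median of all tested, 0.12. The ring marks Hdac9 at 3.34, the 1 member called, with Hdac6 (2.77) and Kdm4a (-2.59) as the next most distant members.

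Promoter sequences are shown for Hdac9, the only member called, and for Hdac6, the member with the next largest difference, because these start regions differ in CpG content. They are RefSeq windows of 300 bases around a start on GRCm38.p6, written 5′ to 3′ along the gene. Capitals mark matches on either strand to the ETS core of PU.1 sites, searched as GAGGAA, to an IRF-type repeat searched as GAAANNGAA, to the TATA box searched as the letters TATAAA, or to the GC box searched as GGGCGG. No matches overlap in the windows shown, and each motif was counted on its own.
Hdac9 first start (chr12:34917046-34917345, minus strand): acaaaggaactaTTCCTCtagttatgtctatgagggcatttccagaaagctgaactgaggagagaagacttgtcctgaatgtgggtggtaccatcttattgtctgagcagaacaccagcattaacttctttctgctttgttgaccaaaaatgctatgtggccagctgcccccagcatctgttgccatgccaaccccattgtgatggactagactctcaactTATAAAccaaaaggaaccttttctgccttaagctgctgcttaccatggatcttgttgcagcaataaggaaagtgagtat
Hdac9 other start (chr12:34528840-34529139, minus strand): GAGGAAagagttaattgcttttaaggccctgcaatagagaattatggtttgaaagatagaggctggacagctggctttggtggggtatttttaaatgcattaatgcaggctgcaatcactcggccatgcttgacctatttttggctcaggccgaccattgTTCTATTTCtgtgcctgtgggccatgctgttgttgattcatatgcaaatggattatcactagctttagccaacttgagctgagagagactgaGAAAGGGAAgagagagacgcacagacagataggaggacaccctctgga
Hdac6 (chrX:7947840-7948139, minus strand): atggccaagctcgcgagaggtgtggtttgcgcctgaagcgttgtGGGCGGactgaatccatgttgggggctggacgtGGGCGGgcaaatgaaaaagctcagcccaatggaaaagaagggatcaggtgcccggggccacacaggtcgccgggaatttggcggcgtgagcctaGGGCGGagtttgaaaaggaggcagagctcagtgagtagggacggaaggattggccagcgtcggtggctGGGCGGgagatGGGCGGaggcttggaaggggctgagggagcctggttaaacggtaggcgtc

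The first Hdac9 window held 0 CpG dinucleotides and a TATAAA that begins 29 bases before the start, and the other held 3 CpG. By contrast the Hdac6 window held 20 CpG and 5 GC boxes, with no match to the other motifs. Windows were found for 66 of the 82 tested member genes, 88 windows in all, whose median was 24.5 CpG, against 7 for all 32851 windows of the table. Of these 88, 6 had 3 or fewer CpG (31.4% of all windows had), namely the 2 of Hdac9 and 1 each of Kdm3a, Kdm4c, Setd5 and Chd9. The GC box was in 68.2% of member windows and 35.7% of all windows, and TATAAA in 3.41% and 13.6%. GAGGAA occurred in 22.7% of member windows and 28.3% of all, and GAAANNGAA, with 2 matches in the other Hdac9 window, in 6.82% and 8.56%. A match is a description of letters and not a measured binding site.

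Histone deacetylases remove acetyl groups and mostly lower transcription as parts of corepressor complexes. Of 11 genes, 7 were tested, 1 rose (Hdac9) and 6 did not pass, and all 7 differences were above 0, where 57.2% of all tested probe sets were, with a median of 0.56 relative to all tested. The signs of 2 did not hold in every setting: Hdac3 had the other sign in 6 of 18 settings and Hdac2 in 2 of 18. Some of these settings leave a difference unchanged and so could not turn its sign. Within the 5′-actin-poor arrays and the others Hdac3 differed by -0.04 and -0.16, and Hdac2 by 1.04 and -0.19. Hdac9, a class IIa deacetylase that binds MEF2 factors, was at 8.91, 8.65 and 8.80 (log2) on the CDP arrays, against 5.70 and 5.20 on the CMP arrays. The CDP values sat close together and more than 2 units above either CMP value. Its mean was 8.79 ± 0.13 (SD, n = 3) in CDP and 5.45 ± 0.36 (SD, n = 2) in CMP, a difference of 3.34 ± 0.33 (SE), or 10.1-fold, with an adjusted p of 0.0155 in limma. The difference was 3.21 between the 5′-actin-poor arrays and 3.52 between the others, and CDP 2, which carried neutrophil transcripts, had the lowest of the CDP values, with a difference of 3.41 when it was left out. A second Hdac9 probe set was between 2.41 and 2.52 on all 5 arrays and was not tested. Leaving out any 1 array kept the difference between 3.08 and 3.59 but ended the call (adjusted p from 0.0576 without CDP 1 to 0.129 without CDP 3), in fits that called 0 to 44 of all probe sets.

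Hdac6, a mainly cytoplasmic deacetylase of tubulin, was at 7.27, 8.30 and 8.97 in CDP, against 4.68 and 6.15 in CMP. Every CDP array was above both CMP arrays, but the arrays of each group were spread over more than 1 unit. The difference, 6.10-fold once values below log2 5 were set to 5, was 2.77 ± 0.66 (SE) and did not pass (limma, adjusted p = 0.119). It was 2.59 between the 5′-actin-poor arrays and 2.49 between the others, and with those arrays as a block it passed (2.53, adjusted p = 0.00913). Hdac5, another class IIa enzyme, was at 0.68 ± 0.51, and Hdac10, a class IIb enzyme singled out after its values were seen, at 0.72 ± 0.59 (SE). For both the groups overlapped.

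Among class I deacetylases, the catalytic subunits of the Sin3, NuRD and NCoR corepressors, no probe set passed. Hdac1 was at 10.85, 10.81 and 10.73 in CDP, against 10.03 and 10.67 in CMP (0.45 ± 0.34, adjusted p = 0.595). Hdac2 was at 10.89, 11.35 and 11.34 in CDP, against 9.85 and 11.54 in CMP, so the CMP arrays lay on both sides of CDP. Hdac3, the catalytic partner of NCoR, was at 7.05, 8.61 and 8.86 in CDP, against 7.09 and 8.90 in CMP, low on both 5′-actin-poor arrays. Hdac4, Hdac7, Hdac8 and Hdac11 did not reach log2 5 on 2 arrays on any probe set.

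**Figure D2:**
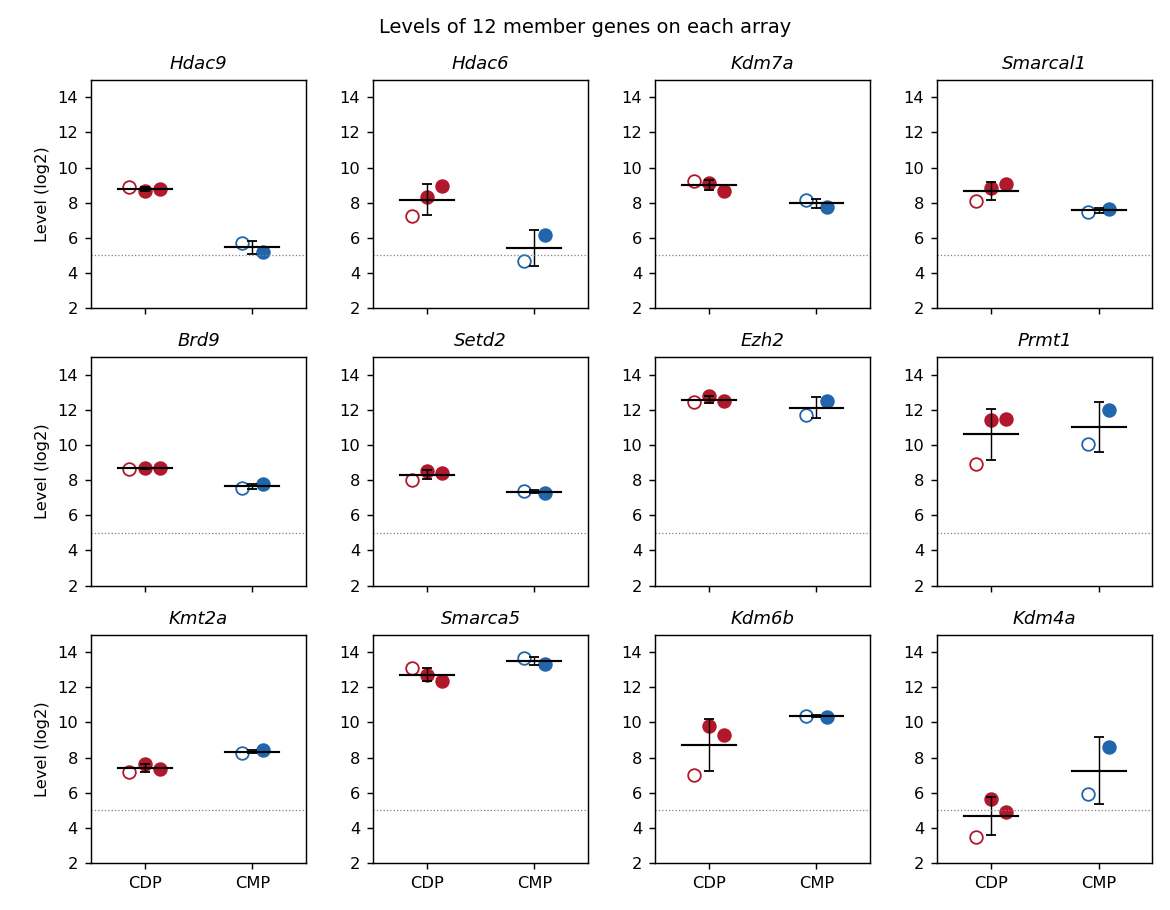
Levels (log2) of 12 member genes on each array, CDP in red on the left and CMP in blue on the right of each panel; open points are the 5′-actin-poor arrays (CDP 1 and CMP 1), bars give mean ± SD (n = 3 and n = 2), and the dotted line is the detection level of log2 5. Hdac9 shows 8.65 to 8.91 in CDP and 5.20 to 5.70 in CMP, while Prmt1 separates by open and filled points.

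Lysine demethylases remove methyl groups from histone lysines through flavin-dependent (Kdm1) or Jumonji-type chemistry. Of 15 genes 13 were tested, and 0 of their 23 probe sets passed in limma (8, or 34.8%, had an unadjusted p under 0.05, and 15.9% of all tested), the genes lying on both sides: 8 were above the all-probe-set median and 5 below. On 11 of the 23 probe sets the groups did not overlap, where 32.2% of all tested probe sets did not overlap. At 1 probe set per gene they did not overlap on 8 of the 13 genes, with CDP above on 5 and below on 3. At that unit the share among all 82 tested member genes was 36.6%, and it was not computed over all genes. Kdm7a, an eraser of H3K9 and H3K27 methylation, was at 9.22, 9.13 and 8.68 in CDP, against 8.14 and 7.78 in CMP (1.05 ± 0.34 SE, adjusted p = 0.216). Its second probe set, at 1.88 ± 0.74, gave 0.09 between the 5′-actin-poor arrays and 3.22 between the others. Kdm1b, an H3K4 demethylase of the flavin type picked after its values were seen, was at 7.79, 7.81 and 7.86 in CDP, against 6.78 and 6.87 in CMP (1.00 ± 0.29 SE, adjusted p = 0.179). Kdm2b, the H3K36 demethylase that also recruits a variant PRC1, was at 11.98, 11.67 and 11.85 in CDP, against 11.54 and 11.22 in CMP (0.45 ± 0.31 SE, adjusted p = 0.560).

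On the other side lay Kdm4a, Kdm6b and Kdm5b. Kdm4a, an eraser of H3K9 and H3K36 methylation, was at 3.47, 5.63 and 4.90 in CDP, against 5.90 and 8.60 in CMP. Its difference of -2.59 ± 0.95 (SE, adjusted p = 0.266) is at least 4.12-fold lower with values below log2 5 set to 5, and 2 of the 3 CDP arrays were below detection. Kdm6b removes H3K27 methylation and is known to be induced by inflammatory signals in macrophages. It was at 7.01, 9.81 and 9.29 in CDP, against 10.39 and 10.31 in CMP (-1.65 ± 0.83 SE, adjusted p = 0.407), and CDP 1 stood apart from the other CDP arrays. All 3 tested Kdm6b probe sets had negative differences, between -1.75 and -0.55. Kdm5b, an H3K4 demethylase also picked after its values were seen, was at 6.26, 5.90 and 6.15 in CDP, against 7.85 and 7.24 in CMP (-1.44 ± 0.35 SE, adjusted p = 0.121).

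With the 5′-actin-poor arrays as a block, the fit called 8.69% of all tested probe sets and 6 of the 152 member probe sets (3.95%). These were Hdac9 (3.39, adjusted p = 0.00309), Hdac6 and 1 of 2 probe sets of Kdm3b (1.26, adjusted p = 0.0351) as higher, and Kdm4a (-2.95, adjusted p = 0.00943), Kdm5b (-1.37, adjusted p = 0.0324) and 1 of 3 probe sets of Kdm6b (-1.51, adjusted p = 0.0489) as lower in CDP. The brighter Kdm3b probe set was at 0.62 ± 0.62 (SE) without the block. This block was chosen with the split of the arrays known. Kdm3b, which erases H3K9 methylation, was picked after its values were seen.

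**Figure D3:**
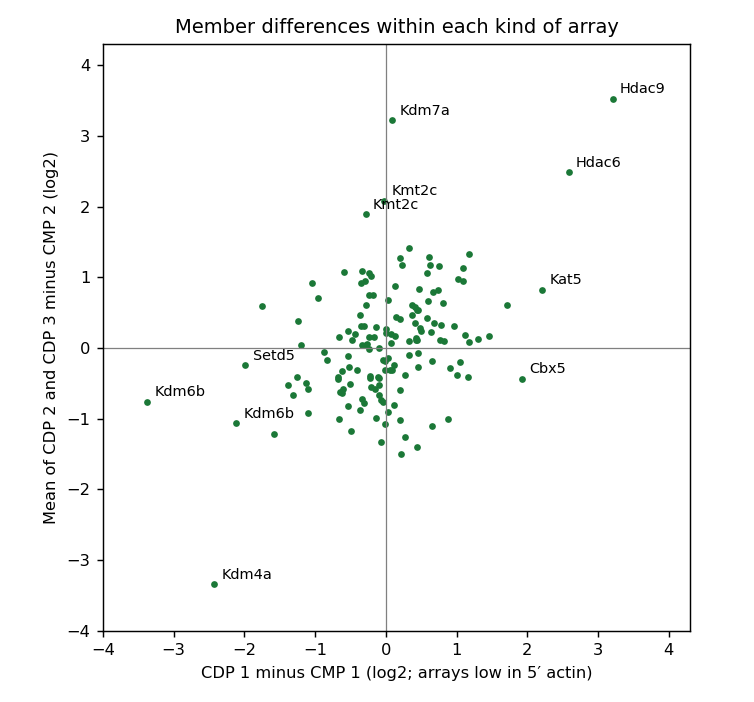
Each point is 1 of the 152 tested member probe sets; the horizontal axis gives CDP 1 minus CMP 1, the 5′-actin-poor arrays, and the vertical axis the mean of CDP 2 and CDP 3 minus CMP 2 (both log2). Hdac9 (3.21 and 3.52), Hdac6 (2.59 and 2.49) and Kdm4a (-2.43 and -3.34) keep their side on both axes, while 1 probe set of Kdm7a (0.09 and 3.22) and 1 of Kdm6b (-3.38 and -0.76) lie near 1 axis.

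Many probe sets followed the kind of array, among members and among all tested. On 69 of the 152 member probe sets (45.4%, and 40.4% of all tested) both 5′-actin-poor arrays lay above or below all 3 others. The cell types separated on fewer, 41 member probe sets. The same order held over all tested probe sets, with 6692 against 5333. CDP minus CMP had the same sign within both kinds of array for 99 member probe sets (65.1%, and 65.0% of all tested). Prmt1, the main enzyme of asymmetric arginine dimethylation, was at 8.93, 11.41 and 11.45 in CDP, against 10.03 and 12.01 in CMP, with the lower value of each group on its 5′-actin-poor array. One of 4 tested probe sets of Cbx5, which encodes HP1-alpha and was picked after its values were seen, was at 7.75, 3.43 and 2.86 in CDP, against 5.82 and 3.58 in CMP. The part that RNA quality has in any difference between the populations was not tested.

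Polycomb genes showed no call. Ezh2, the main H3K27 methyltransferase of PRC2, was at 12.46, 12.80 and 12.48 in CDP, against 11.70 and 12.53 in CMP (0.46 ± 0.38 SE, adjusted p = 0.622, 95% interval -0.45 to 1.38). Ezh1, its paralogue of non-dividing cells, was at 6.94, 7.43 and 7.07 in CDP, against 6.49 and 8.65 in CMP, so the 2 CMP arrays enclosed all CDP arrays. Its other 3 probe sets were at 2.46 or less on all 5 arrays. Of the PRC1 chromobox readers, which dock on methylated H3K27, Cbx6 was at 8.12, 8.46 and 8.26 in CDP, against 8.79 and 8.77 in CMP (-0.50 ± 0.31 SE, adjusted p = 0.497). Cbx2, Cbx7 and Cbx8 were not tested, and Cbx7 stayed between 2.29 and 2.59 on all its probe sets and arrays. Cbx1, an HP1 protein that reads methylated H3K9, had 4 tested probe sets, all with negative differences between -0.61 and -0.47, none of which passed. Between the 5′-actin-poor arrays these 4 were at 0.21, -0.06, 0.03 and -0.31. Between the other arrays they lay between -1.02 and -0.74.

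None of the writers of lysine methylation passed. In the KMT2/SET1 family, which methylates H3K4, 7 of 7 genes were tested and their median was 0.05 relative to all tested. Kmt2a, the MLL protein of stem cell and leukaemia biology, was at 7.17, 7.62 and 7.35 in CDP, against 8.27 and 8.40 in CMP (-0.95 ± 0.32 SE, adjusted p = 0.223), while its dimmer probe set was at 0.21. Kmt2c, which marks enhancers, was at 9.10, 9.83 and 10.14 in CDP, against 9.12 and 7.90 in CMP. Its 4 probe sets were all positive over the 5 arrays, between 0.11 and 1.18. Between the 5′-actin-poor arrays all 4 were negative, from -1.05 to -0.02. Between the other arrays all 4 were positive, from 0.31 to 2.08. Kmt2d, its partner at enhancers, was at -0.95 ± 0.55 (SE), Setd1a at -1.0 ± 0.42 (SE) and Kmt2e at 0.25 ± 0.35 (SE).

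Among other SET-domain enzymes Setd2, which trimethylates H3K36 behind RNA polymerase II, was at 8.0, 8.49 and 8.41 in CDP, against 7.39 and 7.27 in CMP (0.97 ± 0.32 SE, adjusted p = 0.223). Setd5 was at -0.80 ± 0.63 (SE) and Setd3, an actin histidine methyltransferase despite its name, at -0.34 ± 0.56 (SE). The 11 genes of this group were split 6 above and 5 below the all-probe-set median, and none of 17 probe sets passed. Arginine methyltransferases lay mostly below it, with 6 of 7 tested genes and a median of -0.36 relative to all tested. Their extremes were Prmt2 (0.94 ± 0.36 SE, adjusted p = 0.283) and Prmt6 (-0.56 ± 0.38 SE, adjusted p = 0.546), and Prmt8 was not tested.

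Acetyltransferases add the marks that deacetylases remove. All 8 genes were tested, 6 above and 2 below the all-probe-set median, and none of 14 probe sets passed. Kat2b (PCAF) was at 10.52, 10.26 and 10.54 in CDP, against 10.28 and 9.22 in CMP (0.69 ± 0.41 SE, adjusted p = 0.488), and its paralogue Kat2a (GCN5) was at -0.23 ± 0.64 (SE). Kat6a (MOZ) and Kat6b (MORF) were at 0.13 ± 0.39 and -0.10 ± 0.33 (SE), with 95% intervals of -0.81 to 1.08 and -0.90 to 0.70. Kat5 (TIP60) had the largest difference of the group, 1.48 ± 1.03 (SE, limma, adjusted p = 0.560) on its brightest probe set. This was at 5.02, 7.04 and 6.90 in CDP, against 3.31 and 6.37 in CMP, lowest within each group on the 5′-actin-poor array. With values below log2 5 set to 5 the means differed 1.55-fold.

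Bromodomain proteins bind acetylated histones. All 6 genes were tested, 4 above and 2 below the all-probe-set median, and none of 16 probe sets passed. Brd9, a subunit of a non-canonical SWI/SNF complex, was at 8.63, 8.69 and 8.68 in CDP, against 7.54 and 7.75 in CMP, a 2.03-fold difference that did not pass (1.02 ± 0.30 SE, adjusted p = 0.176). The difference was 1.09 and 0.94 within the 2 kinds of array. Brd2, of the BET family, was at 0.30 ± 0.32 (SE) and Brd1, a scaffold of MOZ-type acetyltransferases, at -0.52 ± 0.41 (SE).

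The medians of the remodeler groups relative to all tested were -0.25 for SWI/SNF, -0.20 for ISWI or other SNF2 ATPases and -0.22 for CHD genes. None of their probe sets passed. The -0.20 is the value of Smarcad1, the middle of 3 tested genes, with Smarca5 at -0.90 and Smarcal1 at 0.98 relative to all tested. SWI/SNF, or BAF, opens chromatin at enhancers, and 7 of its 9 listed genes were tested, 3 above and 4 below the all-probe-set median. Its ATPases Smarca4 (BRG1) and Smarca2 (BRM) were at 0.50 ± 0.51 and -0.34 ± 0.45 (SE). The core subunit Smarcc1 was at 12.72, 12.02 and 11.32 in CDP, against 13.38 and 12.67 in CMP (-1.0 ± 0.50 SE, adjusted p = 0.403), with CDP 1 overlapping CMP 2. Smarcd2, a subunit that mouse granulocyte formation needs, was at 13.90, 13.14 and 13.36 in CDP, against 14.12 and 13.68 in CMP (-0.43 ± 0.37 SE). Smarcd1 and Smarcd3 were not tested.

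Smarca5 (SNF2H), the ATPase of ISWI complexes, had 3 probe sets at -0.78, -0.50 and -0.24, none past the threshold, and on the brightest it was at 13.11, 12.69 and 12.35 in CDP, against 13.65 and 13.35 in CMP. Smarcal1, which rewinds stalled replication forks, was at 8.09, 8.85 and 9.07 in CDP, against 7.48 and 7.67 in CMP (1.09 ± 0.40 SE, adjusted p = 0.265). Of the CHD remodelers 8 of 10 genes were tested, 2 above and 6 below the all-probe-set median. Chd4, the ATPase of NuRD, was at -0.30 ± 0.64 (SE) and its paralogue Chd3 at 0.53 ± 0.61 (SE). Chd1l was at -0.58 ± 0.31 (SE) with no overlap between groups, Chd9 was at 0.57 ± 0.34 (SE), and Chd5 and Chd7 were not tested.

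**Figure D4:**
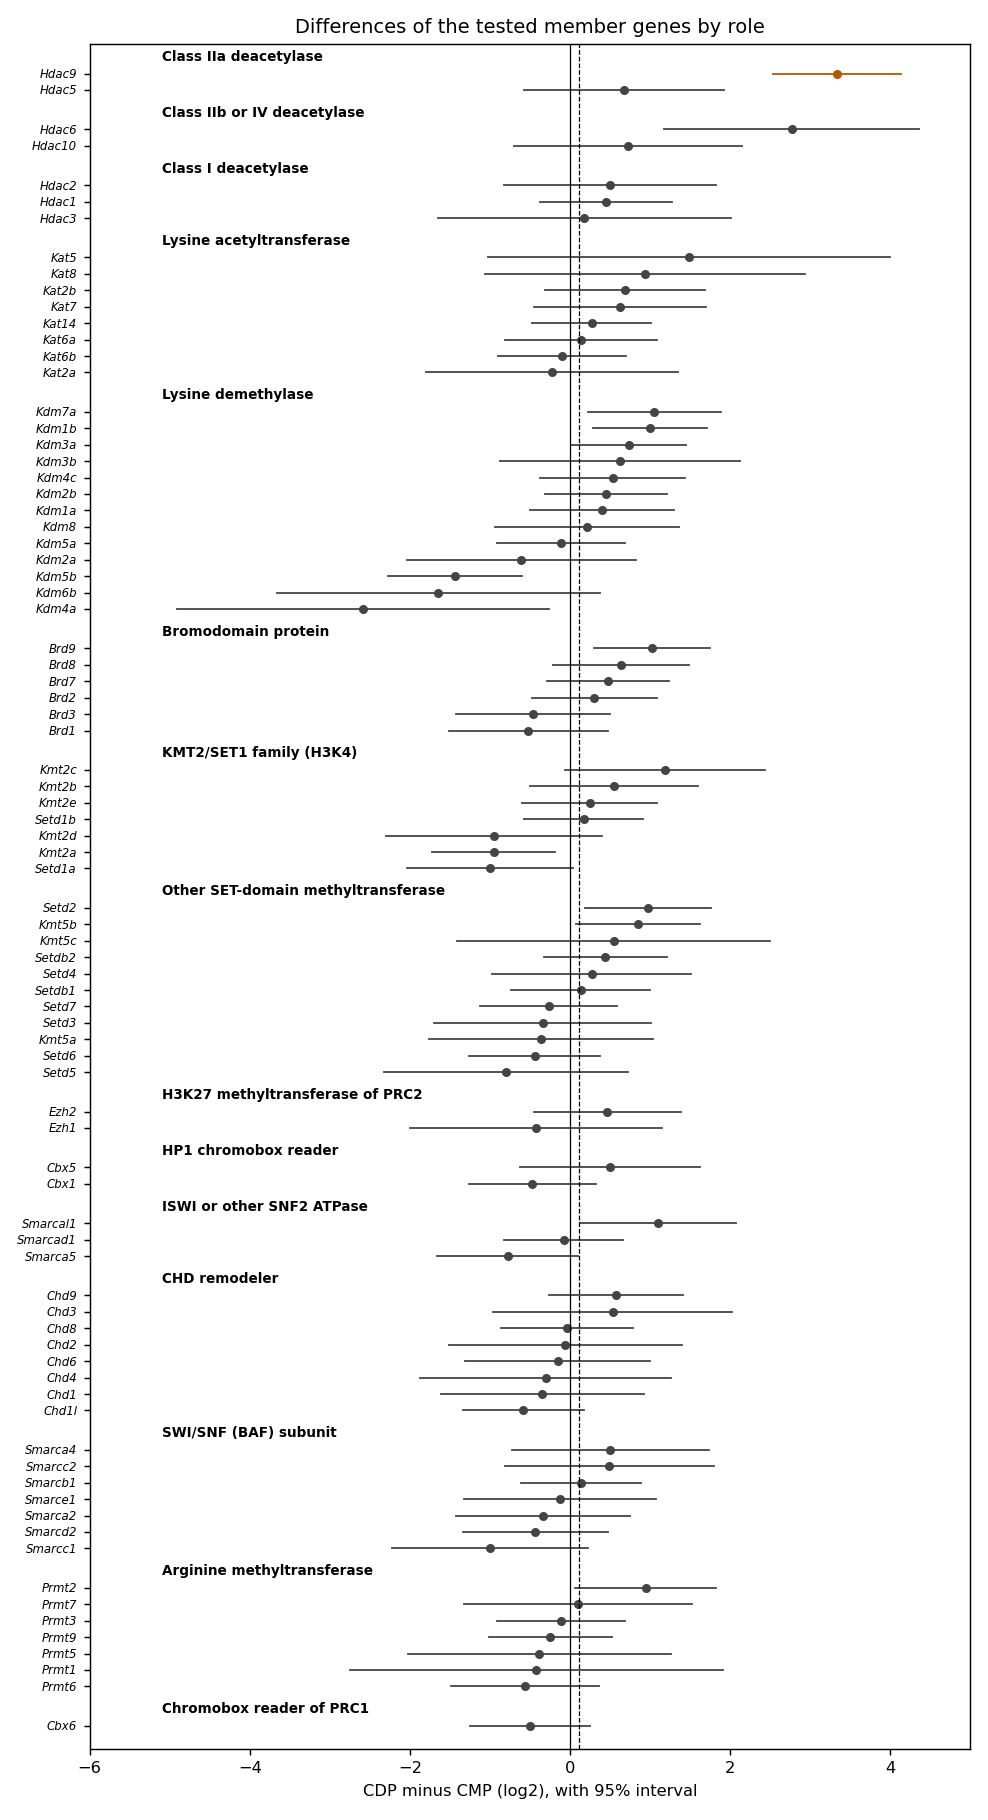
CDP minus CMP (log2) with its 95% interval for the 82 tested member genes, 1 probe set each (the one with the highest mean), grouped by role; the solid line is 0, the dashed line the median of all tested probe sets (0.12), and orange marks the gene called. Apart from Hdac9, no gene was called, and most intervals span 0.

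Probe sets of 1 gene often disagreed. Of 45 genes with several tested probe sets, 13 had only positive and 13 only negative differences, and 19 had both signs. With 3 or more tested probe sets, 8 of 16 genes kept 1 sign over the 5 arrays. Kmt2c, Kmt2e and Kmt5b were above 0, and Cbx1, Chd4, Kdm6b, Smarca5 and Smarcc1 below 0. This does not mean 1 sign within each kind of array, as Kmt2c shows above. None of these 8 genes had a called probe set. Among the genes described above, other probe sets with the opposite sign were at 0.31 for Brd1, -0.67 for Brd2, 0.14 for Setd1a, 0.54 for Setd3, -0.11 for Kdm2b and -0.16 for Smarcal1. For Kat2b they were at -0.95 and -0.62, and for Smarcd2 1 of 2 was at 0.79. None of these passed.

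Genes of the same complexes that the symbol rule does not take gave no call either. Of 84 such genes 76 were tested, and 0 passed in limma, with 8 at an unadjusted p under 0.05, or 10.5%, where all tested probe sets had 15.9%. Their median was 0.05 relative to all tested. The 3 smallest p-values were those of Mbd2, the methyl-CpG reader of NuRD (1.28 ± 0.36 SE, adjusted p = 0.171), Jarid2, which helps to recruit PRC2 (1.19 ± 0.34 SE, adjusted p = 0.175), and Pcgf5, a subunit of variant PRC1 (-0.92 ± 0.30 SE, adjusted p = 0.219). Mbd2 was at 9.60, 9.68 and 9.54 in CDP, against 8.73 and 7.92 in CMP, and Pcgf5 at 10.56, 10.38 and 10.36 in CDP, against 11.27 and 11.44 in CMP. The 7 NuRD partners, 4 above and 3 below the all-probe-set median, had the highest median of the 9 lists, 0.95 relative to all tested. That median is the value of 1 gene, Mta2 (1.07 ± 0.86 SE, limma, adjusted p = 0.622). Mta2 was at 7.46, 9.17 and 9.11 in CDP, against 6.29 and 8.73 in CMP, lowest within each group on the 5′-actin-poor array. It was singled out after its values were seen.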

How the data were processed

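The table covers 5 arrays (3 CDP, 2 CMP), 45037 probe sets and 64 control features. The authors made these log2 values with GCRMA, per the submitters' processing notes; a GCRMA version was not given in the sources used here. Groups and replicate numbers come from the sample titles, of which that of CDP 3 begins with CM and the others with BM. Symbols come from the platform annotation and matched RefSeq by gene identifier with 0 changes among members. Probe sets with at least 2 arrays at log2 5 or above were tested in limma 3.58.1 (R 4.3.3; lmFit, eBayes, 2-sided, 3 residual and 3.14 prior degrees of freedom), adjusted by Benjamini-Hochberg over all 16552. Differences are CDP minus CMP. A gene is given at its tested probe set with the highest mean. Genes named were all called ones, the brightest and the extremes of each role, a fixed set of paralogues and known regulators, and the partner genes with the 3 smallest p. Members, lists and settings were chosen with earlier results of these data known. Alternatives were 2 scalings, 3 filters, 2 variance models, array weights, 2 blocks, removal of probe sets marked x or s, 1 probe set per gene, an adjusted p under 0.1, and leaving out each array. Leaving out both 5′-actin-poor arrays was added after seeing the data. The procedure was tested on simulated data with independent noise on each array, without the shared pattern of the 5′-actin-poor arrays. The number of arrays limits the precision.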

Additional observations from a re-analysis of the deposited data

How the results depend on the processing

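Hdac9 was the 1 member called under both scalings, the filters at log2 4 and 7, both variance models, array weights, removal of probe sets marked x or s, 1 probe set per gene and an adjusted p under 0.1, where 606 of all tested probe sets were called against 287. Without a filter 0 members were called higher, 55 of all probe sets were called, and Hdac9 had an adjusted p of 0.0817 (limma), with 1 partner gene called, Mtf2. With the 5′-actin-poor arrays as a block 3 members were higher and 3 lower, among 1438 called in all, with 1 partner gene, Mbd2. With both 5′-actin-poor arrays left out 0 members were higher and 0 of all probe sets were called, with Hdac9 at 3.52 (adjusted p = 0.0743); this leaves 1 CMP array, assumed to vary like the 2 CDP arrays, so it says nothing about stability. Leaving out 1 array at a time gave 0 members higher each time and 0 to 44 calls in all, the 44 without CDP 1, with 7 to 23 member probe sets at an unadjusted p under 0.05 (4.61% to 15.1%, and 9.11% to 19.4% of all tested); without a CMP array the lone one is likewise assumed to vary like the CDP arrays. With the replicate block 2 members were higher (Hdac9 and Hdac6, 2.37, adjusted p = 0.0271) and 1 was lower (Kdm4a, -2.70, adjusted p = 0.0208), with 608 called in all; the groups share only 2 numbers, no label pairs them, and the deviations of same-numbered arrays correlated at 0.606 and 0.579, while CDP 3 and CMP 2, with different numbers, correlated at 0.326. With 2 CMP arrays their deviations mirror each other, so these values are not independent. Of 43 named genes tested, 26 kept their sign in all 19 settings, 5 kept it in the 17 or 18 that gave them a value, and 12 did not, among them Chd4, Ezh1, Hdac2, Hdac3, Kat2a and Prmt1. The filters, both variance models, removal of probe sets marked x or s and 1 probe set per gene leave a probe set's difference unchanged. So does an adjusted p under 0.1, and only the remaining settings could change a sign. The number of arrays and the signal over background limit what could be called, and 90 member probe sets lay too low to test.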

Other observations

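Probe sets annotated to several symbols were left out by the rule, and those that include a chromatin gene gave these values. Of the probe sets shared by Cbx3, which encodes HP1-gamma, and its pseudogene Cbx3-ps5, 3 were tested, with CDP minus CMP at -0.34, -0.38 and -0.17, none past the threshold (limma, adjusted p = 0.780, 0.773 and 0.908). The brightest of them was at 13.21, 12.71 and 12.85 in CDP, against 13.83 and 12.69 in CMP. A set shared by Kdm6b and 1700064E03Rik was at 8.77, 8.14 and 8.83 in CDP, against 11.04 and 9.36 in CMP (-1.62 ± 0.56 SE, adjusted p = 0.242), with no overlap between the groups.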
